A study of Mus musculus with 20 samples.

Results

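The genes described are 10 members of the Bcl2 family: the survival genes Bcl2, Mcl1 and Bcl2l2, the BH3-only death genes Bmf, Bcl2l11, Bbc3, Bik, Bid and Bad, and the effector gene Bak1. They were chosen by gene symbol, and each was read by 1 probe set of the array. All 10 are among the 11968 genes that passed a filter on dim signals and were tested. Signals are log2 values, and the level of one gene's probe set is not set against that of another.

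RNA came from splenic B cells of C57BL/6 mice of both genotypes, 8 to 12 weeks old and labelled as of mixed sex, on 20 arrays in 10 groups of 2. TAK1-deleted cells came from mice labelled mb-1/TAK1f/f. The name mb-1 stands for the locus of the B cell receptor subunit Cd79a, which is active in the B lineage and is used there to delete floxed genes. Wild type cells came from mice labelled mb-1/TAK1+/+, so mb-1 is named in both genotypes and the floxed alleles in one. TAK1, encoded by Map3k7, is a kinase that carries signals from the B cell receptor to NF-κB and MAP kinases. Cells were enriched by removing those bearing CD43 and were taken unstimulated (0 h) or after 1, 3, 6 or 24 h with 10 µg/ml of anti-IgM, which engages the receptor on these cells. Nothing in the labels tells if unstimulated cells had been kept in culture. Replicates are not said to be separate mice or cultures, so each p-value reflects only how far these arrays spread, a spread that may be technical.

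Bcl2 family proteins set the threshold for the mitochondrial route of cell death. Survival members (Bcl2, Mcl1, and Bcl-w from Bcl2l2) hold effectors such as Bak1 in check, while BH3-only proteins bind the survival members, and some, such as Bim from Bcl2l11 and Bid, can engage effectors directly. In B cells Bim is needed for the death of autoreactive cells, and Mcl1 and Bcl2 sustain mature ones.

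Facts of the whole data set that touch these genes are few. Replicates of a group correlated across tested genes with r of 0.979 to 0.994, a value across genes, which are not independent replicates. The probe set of Map3k7 read 10.40 to 10.76 in TAK1-deleted cells and 10.16 to 10.71 in wild type cells, with no called difference at any time (differences of 0.06 to 0.30, with an adjusted p at 1 h of 0.369, and 0.0209 with the replicate number as a block). The positions of its probes were not analysed, so it does not check the genotypes. The summed linear signal of pan B cell markers at 0 h was 84900 to 90100 in TAK1-deleted cells and 87200 to 93300 in wild type cells. These markers fell with time in both genotypes, 7 of 9 tested in TAK1-deleted cells and 8 of 9 in wild type cells at 24 h against 0 h, and 1 of 9 was higher in TAK1-deleted cells at 24 h. In such bulk samples fewer cells of a type and less RNA per cell cannot be told apart.

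The first question was how the survival genes and the death genes moved with receptor stimulation in each genotype. A gene was called when limma's Benjamini-Hochberg adjusted p over all tested genes was below 0.05 in a two-sided test. No survival gene was called higher at any time in either genotype. Over 3 genes and 4 times, 8 of 12 comparisons with 0 h were called lower in TAK1-deleted cells and 8 of 12 in wild type cells. Of 28 comparisons of the 7 death genes, 11 were called higher and 3 lower in TAK1-deleted cells, against 9 higher and 6 lower in wild type cells. All comparisons within a genotype share its 0 h arrays. Among all tested genes of TAK1-deleted cells, 9.10%, 19.6%, 18.5% and 14.9% were called higher at 1, 3, 6 and 24 h and 10.2%, 22.1%, 17.3% and 12.7% lower. For wild type cells these shares were 10.6%, 20.9%, 24.1% and 23.6% higher and 13.9%, 23.2%, 19.1% and 20.2% lower.

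Counted in either direction, the share of members called was above that of all genes at each time but 24 h in wild type cells, a comparison without a test. In TAK1-deleted cells 5, 6, 5 and 6 of the 10 members were called at 1, 3, 6 and 24 h, where 19.3%, 41.7%, 35.8% and 27.6% of all tested genes were. Wild type cells had 7, 6, 6 and 4 called members, where 24.5%, 44.1%, 43.2% and 43.8% of all genes were. The median change of the 3 survival genes was -0.43, -0.83, -0.85 and -0.71 in TAK1-deleted cells and -0.42, -0.73, -0.83 and -0.87 in wild type cells. The medians of the 7 death genes were 0.02, 0.13, 0.13 and 0.40 in TAK1-deleted cells and 0.11, 0.14, 0.07 and 0.24 in wild type cells. Over all tested genes the medians lay between -0.05 and 0.07. As the members were chosen with earlier results of these data known, the medians and counts are descriptions. With 10 genes, counts near the shares of all genes, as at 3 and 6 h in both genotypes, are no result about the members.

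**Figure D1:**
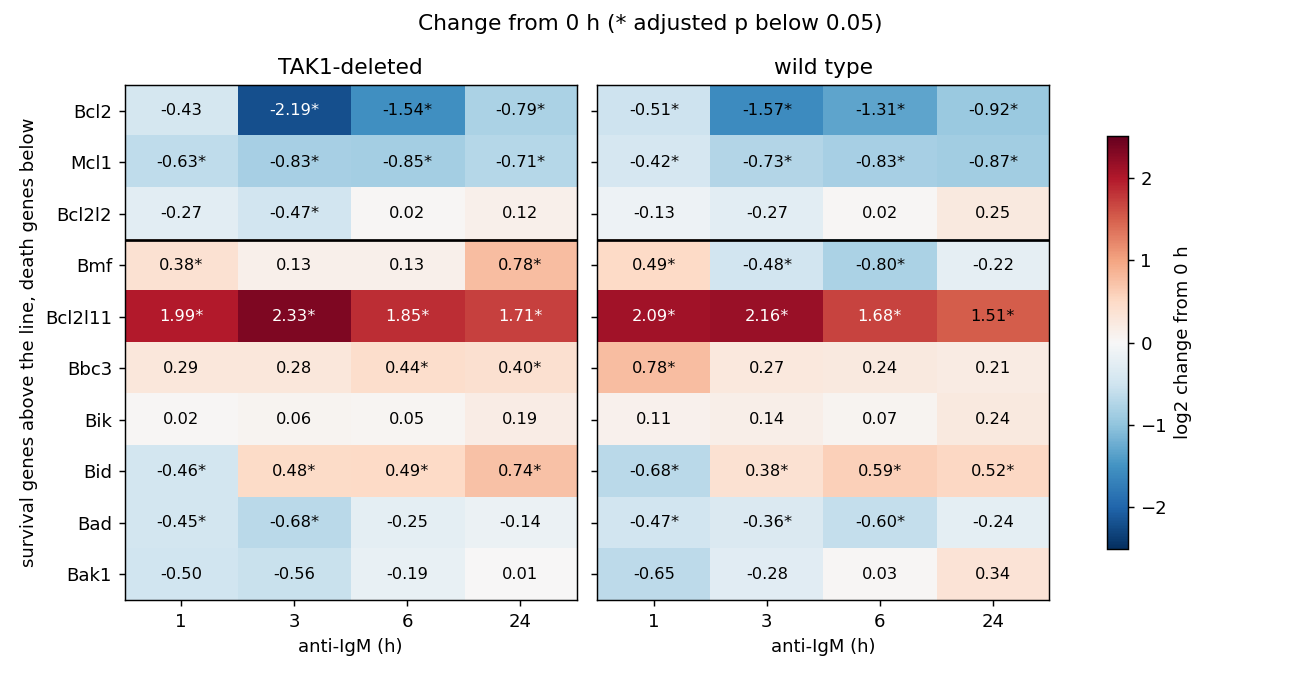
Log2 change from 0 h of each gene (rows; survival genes above the line, death genes below) at 1, 3, 6 and 24 h of anti-IgM (columns), TAK1-deleted cells on the left and wild type cells on the right, with an asterisk where the adjusted p was below 0.05. Bcl2 at 3 h (-2.19 in TAK1-deleted and -1.57 in wild type cells) and Bcl2l11 (1.71 to 2.33 and 1.51 to 2.16) are strongly coloured, and Bmf has opposite signs in the genotypes at 3, 6 and 24 h.

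Bcl2, the founding survival gene of the family, fell steeply within 3 h and then partly recovered. In TAK1-deleted cells its signal was 12.32 and 12.12 at 0 h, 11.85 and 11.73 at 1 h, 10.27 and 9.79 at 3 h, 10.76 and 10.60 at 6 h, then 11.45 and 11.41 at 24 h. Wild type cells gave 12.36 and 12.23, 11.91 and 11.66, 10.86 and 10.59, 11.09 and 10.89, and 11.39 and 11.37 at the same times. Every stimulated array lay below every 0 h array, and both arrays of TAK1-deleted cells at 3 h lay below all others.

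At 3 h Bcl2 was 4.56-fold lower than at 0 h in TAK1-deleted cells (log2 change -2.19 ± 0.15, adjusted p = 2.46e-08) and 2.97-fold lower in wild type cells (-1.57 ± 0.15, adjusted p = 6.69e-07). At 24 h the change was -0.79 ± 0.15 in TAK1-deleted cells and -0.92 ± 0.15 in wild type cells, both called. The early fall was less certain: at 1 h it was -0.43 in TAK1-deleted cells, without a call (adjusted p = 0.067, 0.0012 with the replicate number as a block, and 0.0288 without either TAK1-deleted 3 h array), and -0.51 in wild type cells (adjusted p = 0.0224). The TAK1-deleted value was also called under quantile normalization (adjusted p = 0.00109), median centring (0.0119) and with the compared groups alone (0.0447). The wild type call at 1 h was lost without wild type 0 h replicate 1 (adjusted p = 0.146) or wild type 1 h replicate 2 (adjusted p = 0.198). The steps between neighbouring times placed the largest loss between 1 and 3 h, -1.76 in TAK1-deleted cells and -1.06 in wild type cells, both called.

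Recovery of Bcl2 was called in TAK1-deleted cells, which gained 0.65 ± 0.15 between 3 and 6 h (adjusted p = 0.0194) and 0.75 ± 0.15 between 6 and 24 h (adjusted p = 0.00243). The step from 3 to 6 h lost its call without TAK1-deleted 6 h replicate 1 (adjusted p = 0.181), 6 h replicate 2 (0.0578) or 3 h replicate 2 (0.229), and with the compared groups fitted alone (0.223). The same steps in wild type cells were 0.27 and 0.39, called with the replicate block (adjusted p = 0.042 and 0.00269) and not without it (0.351 and 0.0952). The wild type step from 6 to 24 h was also called without either TAK1-deleted 3 h array (0.0466). Quantile normalization (0.00212), median centring (0.00662) and the compared groups alone (0.0353) called this step too. Of the steps between neighbouring times, 2 of 10 members were called from 1 to 3, 3 to 6 and 6 to 24 h in TAK1-deleted cells, where 32.6%, 6.08% and 18.9% of all tested genes were. In wild type cells 4, 0 and 1 were called, where 36.1%, 8.71% and 19.4% of all genes were.

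Mcl1, which encodes a short-lived survival protein needed by mature B cells, fell early and stayed low. In TAK1-deleted cells it read 12.31 and 12.17 at 0 h, 11.70 and 11.53 at 1 h, 11.49 and 11.34 at 3 h, 11.40 and 11.39 at 6 h, then 11.62 and 11.46 at 24 h. Values in wild type cells were 12.32 and 12.26, 12.01 and 11.74, 11.70 and 11.42, 11.46 and 11.46, and 11.57 and 11.27. All stimulated arrays lay below all 0 h arrays.

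The change of Mcl1 from 0 h was between -0.63 and -0.85 in TAK1-deleted cells and between -0.42 and -0.87 in wild type cells, and it was called at all 4 times in both. The wild type call at 1 h (adjusted p = 0.0284) was lost without wild type 0 h replicate 1 (0.143), 0 h replicate 2 (0.0692) or 1 h replicate 2 (0.265), and with the compared groups alone (0.0941). The wild type step from 1 to 3 h was -0.31, without a call (adjusted p = 0.0751), and it was called with the block (0.00336) and without wild type 3 h replicate 1 (0.0381) or 1 h replicate 2 (0.0406). Quantile normalization (0.00304) and median centring (0.0054) also called this step. Apart from it, no step after 1 h was called for Mcl1 in either genotype, with or without the block.

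Bcl2l2, which encodes Bcl-w, was dim: 7 of 20 arrays reached the filter level of 7.45, and its arrays ranged from 6.95 to 7.67 in TAK1-deleted cells and from 7.01 to 7.63 in wild type cells. It was called lower in TAK1-deleted cells at 3 h (-0.47 ± 0.12, adjusted p = 0.00379), a call lost with the compared groups alone (0.0554). The wild type value at 3 h was -0.27 ± 0.12 (adjusted p = 0.0683, and 0.0376 with the block). At 24 h it was 0.12 in TAK1-deleted cells and 0.25 in wild type cells, neither called. In TAK1-deleted cells the step from 3 to 6 h was 0.49 (adjusted p = 0.0204), a call lost without 6 h replicate 1 (0.14), 6 h replicate 2 (0.102) or 3 h replicate 2 (0.171), under median centring (0.0707) or with the compared groups alone (0.149). Signals near this level hold a larger share of background, which can understate a change.

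Not all survival genes of the family fell. Bcl2l1, which encodes Bcl-xL, was called higher than at 0 h at all 4 times in wild type cells and from 3 h on in TAK1-deleted cells, and it was lower in TAK1-deleted cells at 1, 3, 6 and 24 h (-1.09, -1.63, -1.05 and -0.74, each called). Bcl2a1c, of the A1 gene group, rose at all 4 times, by 0.86 to 1.51 in TAK1-deleted cells and 0.75 to 1.51 in wild type cells. Bcl2l1 and Bcl2a1c were the tested members of a list of 6 other survival genes. Whether this A1 copy itself acts in survival was not examined. Bcl2a1c was lower in TAK1-deleted cells at 3 h (-0.90 ± 0.17, adjusted p = 0.00647) and again at 6 h (-0.76 ± 0.17, adjusted p = 0.0217). A1 genes are near-identical copies, so signal may be shared among them.

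Among the death genes, Bcl2l11, which encodes Bim, rose within 1 h and stayed high. In TAK1-deleted cells it read 9.85 and 9.61 at 0 h, 11.91 and 11.54 at 1 h, 12.13 and 11.98 at 3 h, 11.66 and 11.49 at 6 h, then 11.48 and 11.40 at 24 h. Wild type arrays read 10.02 and 9.58, 12.00 and 11.78, 12.16 and 11.77, 11.60 and 11.38, and 11.36 and 11.27. Every unstimulated array lay below every stimulated one, and within each time but 24 h the genotypes overlapped.

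At 3 h Bcl2l11 was 5.01-fold higher than at 0 h in TAK1-deleted cells (2.33 ± 0.17, adjusted p = 4.42e-08) and 4.48-fold higher in wild type cells (2.16 ± 0.17, adjusted p = 7.83e-08). At 24 h it was still 3.27-fold higher in TAK1-deleted cells (1.71) and 2.85-fold higher in wild type cells (1.51). After the first hour the steps were smaller: the step from 3 to 6 h was -0.48 in both genotypes, called with the replicate block (adjusted p = 0.000847 in TAK1-deleted cells and 0.000673 in wild type cells) and not without it (0.128 and 0.107). With the block a further gain between 1 and 3 h was called in TAK1-deleted cells (0.33, adjusted p = 0.00513, against 0.166 without it). Quantile normalization called this gain (0.00704) and both falls from 3 to 6 h (0.00662 in TAK1-deleted and 0.00217 in wild type cells). Median centring called all 3 as well (0.0155 for the gain, 0.0026 and 0.0012 for the falls).

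No difference between the genotypes was called for Bcl2l11. Its difference, TAK1-deleted minus wild type, was -0.07 at 0 h (95% interval -0.44 to 0.29), -0.16 at 1 h (-0.53 to 0.20), 0.09 at 3 h (-0.28 to 0.46), 0.09 at 6 h (-0.28 to 0.46) and 0.13 at 24 h (-0.24 to 0.49). With the replicate block its standard error was 0.09, against 0.17 without it, and no difference was called either (adjusted p of 0.278 to 0.825). The missing calls do not show that the genotypes had equal levels.

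Promoter windows of Bcl2l11, Bbc3 and Bmf are shown because these BH3-only genes hold the matches to the FOXO and NF-κB motifs, factors known to act on death and survival genes. Sequences are from RefSeq on build GRCm38.p6, where 9 of the 10 genes had an entry (Bik had none) with 15 windows of 300 bases, 250 before and 50 after a start site. They read 5′ to 3′ on the gene's strand, and capitals mark a match on either strand. The first is the Bcl2l11 window at chr2:128125788-128126087 (plus strand), with the FOXO core GTAAACA from base -227 relative to the start site. The second is a Bbc3 window at chr7:16310011-16310310 (plus strand), with the FOXO core on the other strand from base -167. The third is a Bmf window at chr2:118544538-118544837 (minus strand), with a match to the NF-κB consensus on the other strand from base 1.
Bcl2l11: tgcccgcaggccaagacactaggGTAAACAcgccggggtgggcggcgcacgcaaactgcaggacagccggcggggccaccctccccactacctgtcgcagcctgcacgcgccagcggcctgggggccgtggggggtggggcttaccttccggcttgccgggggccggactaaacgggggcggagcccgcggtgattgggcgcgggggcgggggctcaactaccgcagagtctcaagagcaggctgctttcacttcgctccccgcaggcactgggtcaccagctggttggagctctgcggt
Bbc3: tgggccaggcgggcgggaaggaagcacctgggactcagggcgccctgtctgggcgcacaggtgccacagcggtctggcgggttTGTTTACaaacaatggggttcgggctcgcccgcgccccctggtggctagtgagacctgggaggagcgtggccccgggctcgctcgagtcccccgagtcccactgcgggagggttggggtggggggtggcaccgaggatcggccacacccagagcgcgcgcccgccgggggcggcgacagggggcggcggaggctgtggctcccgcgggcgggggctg
Bmf: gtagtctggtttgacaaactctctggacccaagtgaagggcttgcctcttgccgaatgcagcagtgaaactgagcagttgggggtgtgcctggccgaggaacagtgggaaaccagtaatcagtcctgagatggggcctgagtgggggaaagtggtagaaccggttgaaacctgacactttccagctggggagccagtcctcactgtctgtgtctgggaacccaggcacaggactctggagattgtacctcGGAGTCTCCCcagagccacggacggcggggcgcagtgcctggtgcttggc
The FOXO core was found in 2 of the 15 windows and in 3.65% of 32851 promoter windows of all genes. The NF-κB consensus was found in 2 of the 15, that of Bmf and another window of Bbc3 with 2 overlapping matches, and in 8.46% of all. The AP-1 motif TGANTCA was found in 0 of 15 and 7.81% of all, and the E-box CACGTG in 1 of 15, a Bbc3 window, and 7.15% of all. A match describes letters and not a bound site.

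Bmf, which encodes a BH3-only protein that is released to bind survival proteins when cells are damaged, had time courses that parted between the genotypes from 3 h on. In TAK1-deleted cells it read 9.70 and 9.65 at 0 h, 10.02 and 10.10 at 1 h, 9.76 and 9.85 at 3 h, 9.77 and 9.83 at 6 h, then 10.49 and 10.42 at 24 h. Wild type arrays read 9.76 and 9.72, 10.23 and 10.23, 9.16 and 9.36, 8.94 and 8.93, and 9.57 and 9.47. From 3 h on, both TAK1-deleted arrays lay above both wild type arrays at each time, and at 0 and 1 h both lay below.

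Both genotypes showed an early rise of Bmf, at 1 h 0.38 ± 0.11 in TAK1-deleted cells (adjusted p = 0.0202) and 0.49 ± 0.11 in wild type cells (adjusted p = 0.00349). The call in TAK1-deleted cells was lost without any one of the 4 arrays it compares, 0 h replicate 1 (0.072) or 2 (0.0964) or 1 h replicate 1 (0.0519) or 2 (0.137). With the compared groups alone neither rise was called (0.224 in TAK1-deleted and 0.123 in wild type cells). After that Bmf was not called against 0 h in TAK1-deleted cells at 3 and 6 h (0.13 at both) and was called higher at 24 h (0.78 ± 0.11, adjusted p = 5.63e-05). In wild type cells it fell below its 0 h level at 3 h (-0.48 ± 0.11, adjusted p = 0.00205) and 6 h (-0.80 ± 0.11, adjusted p = 1.86e-05), and it was -0.22 at 24 h without a call. The step from 1 to 3 h was -0.25 in TAK1-deleted cells (adjusted p = 0.0916, and 0.0292 with the block) and -0.96 in wild type cells, called. The wild type step from 3 to 6 h was -0.33 (adjusted p = 0.081, and 0.0133 with the block). Quantile normalization (0.045), median centring (0.033) and adjustment over all contrasts (0.0495) also called this step. Between 6 and 24 h Bmf rose in both, by 0.65 in TAK1-deleted cells and 0.59 in wild type cells, both called.

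**Figure D2:**
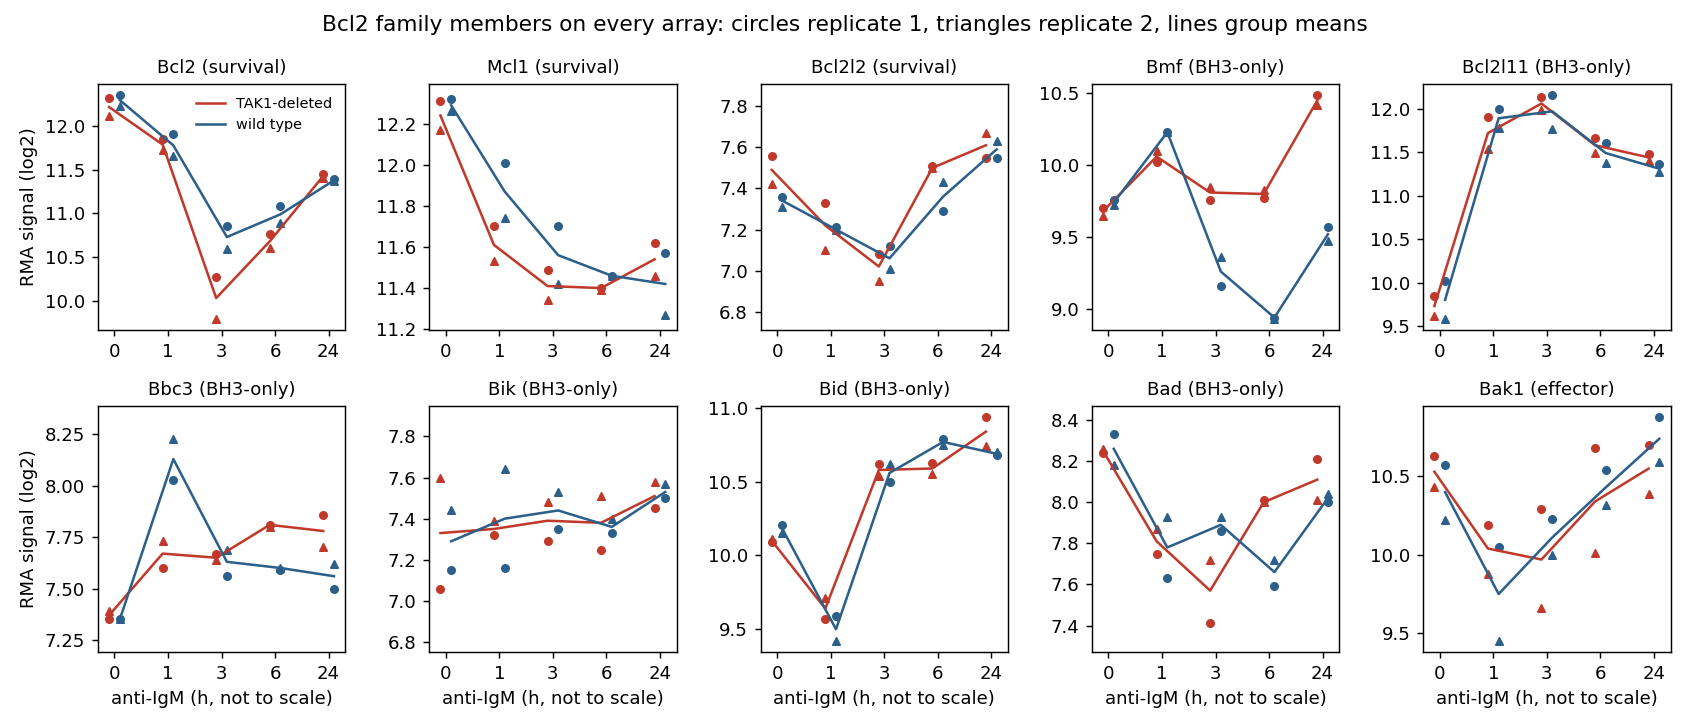
Signal (log2, vertical axis with its own range in each panel) of the 10 genes against time of anti-IgM (h, not to scale) on all 20 arrays, TAK1-deleted in red and wild type in blue, with circles for replicate 1, triangles for replicate 2 and lines through group means. Bcl2l11 stands between 9.58 and 10.02 on the arrays at 0 h, Bcl2 reaches its lowest signal of 9.79 in TAK1-deleted cells at 3 h, and the Bmf lines separate from 3 h on.

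Bbc3, which encodes Puma, a BH3-only protein best known as a p53 target, rose briefly in wild type cells. It was dim, with 16 of 20 arrays at or above the filter level. TAK1-deleted arrays read 7.35 and 7.39 at 0 h, 7.60 and 7.73 at 1 h, 7.67 and 7.64 at 3 h, 7.81 and 7.80 at 6 h, then 7.86 and 7.70 at 24 h. Both wild type arrays read 7.35 at 0 h, and then 8.03 and 8.23 at 1 h, 7.56 and 7.69 at 3 h, 7.59 and 7.60 at 6 h, then 7.50 and 7.62 at 24 h. The 1 h wild type arrays lay above every other array of this gene.

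The rise of Bbc3 at 1 h was 0.78 ± 0.11 in wild type cells (adjusted p = 8.28e-05) and the step from 1 to 3 h was -0.51, both called. In TAK1-deleted cells the change at 1 h was 0.29 without a call (adjusted p = 0.0846, and 0.0327 with the block), and rises were called at 6 h (0.44, adjusted p = 0.00606) and 24 h (0.40, adjusted p = 0.0131). The call at 24 h was lost without TAK1-deleted 0 h replicate 1 (0.0668) or 24 h replicate 1 (0.133). Median centring ended both rises (adjusted p = 0.0657 at 6 h and 0.102 at 24 h), as did fitting the compared groups alone (0.0543 and 0.09), which also ended the wild type step from 1 to 3 h (0.0525). At 3 h the changes were 0.28 in TAK1-deleted and 0.27 in wild type cells, called with the block (adjusted p = 0.0272 and 0.0316) and not without it (0.0566 and 0.063). The value of TAK1-deleted cells at 3 h was also called without either wild type 1 h array (0.0479 and 0.0477). Quantile normalization called both 3 h values (0.0158 in TAK1-deleted and 0.0336 in wild type cells). It also called the TAK1-deleted value at 1 h (0.042) and a wild type rise at 6 h (0.0352).

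Bid, the BH3 protein that caspase-8 cleaves to link death receptors to mitochondria, first fell and then rose in both genotypes. TAK1-deleted arrays read 10.09 and 10.11 at 0 h, 9.57 and 9.71 at 1 h, 10.62 and 10.54 at 3 h, 10.63 and 10.55 at 6 h, then 10.94 and 10.74 at 24 h. Wild type arrays read 10.21 and 10.15, 9.59 and 9.42, 10.50 and 10.62, 10.79 and 10.75, and 10.68 and 10.70. The arrays at 1 h lay below all its other arrays in both genotypes, and those from 3 h on lay above all at 0 h. In TAK1-deleted cells it changed by -0.46 at 1 h and by 0.48, 0.49 and 0.74 at 3, 6 and 24 h. The wild type changes were -0.68 at 1 h and 0.38, 0.59 and 0.52 later, and all 8 were called. The step from 1 to 3 h was 0.94 in TAK1-deleted cells and 1.06 in wild type cells, both called. The call in TAK1-deleted cells at 1 h (adjusted p = 0.00837) was lost without 1 h replicate 1 (0.0831). That in wild type cells at 3 h (adjusted p = 0.012) was lost without 0 h replicate 2 (0.0645) or 3 h replicate 2 (0.0967). With the compared groups alone both were lost (0.144 and 0.117), as was the TAK1-deleted call at 3 h (0.0724). From 6 to 24 h Bid moved by a further 0.25 in TAK1-deleted cells, called with the block (0.0421) and not without it (0.147).

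Bad, a BH3-only protein held inactive by growth factor kinases, was called lower early and never higher. TAK1-deleted arrays read 8.24 and 8.26 at 0 h, 7.75 and 7.87 at 1 h, 7.41 and 7.72 at 3 h, 8.01 and 8.00 at 6 h, then 8.21 and 8.01 at 24 h. Wild type arrays read 8.33 and 8.18, 7.63 and 7.93, 7.86 and 7.93, 7.59 and 7.72, and 8.00 and 8.04. All arrays at 1 and 3 h lay below all arrays at 0 h. Bad was called lower in TAK1-deleted cells at 1 h (-0.45, adjusted p = 0.0285) and 3 h (-0.68, adjusted p = 0.000663), and in wild type cells at 1 h (-0.47, adjusted p = 0.0173), 3 h (-0.36, adjusted p = 0.0403) and 6 h (-0.60, adjusted p = 0.00182). At 24 h it was -0.14 in TAK1-deleted cells and -0.24 in wild type cells, not called. The TAK1-deleted call at 1 h was lost without any one of its 4 arrays (adjusted p of 0.0649 to 0.154). The wild type call at 1 h was lost without wild type 0 h or 1 h replicate 1 (0.139 and 0.145). The wild type call at 3 h was lost without wild type 0 h replicate 1, either array of wild type 3 h, or either array of wild type or TAK1-deleted 6 h (0.0503 to 0.218). It was also lost without the filter (0.0667), under quantile normalization (0.0707), median centring (0.222) and adjustment over all contrasts (0.081), and with the compared groups alone (0.108). Both calls at 1 h were lost under median centring (0.144 in TAK1-deleted and 0.14 in wild type cells) and with the compared groups alone (0.153 in TAK1-deleted and 0.162 in wild type cells). Later steps upward were called with the block, 0.43 from 3 to 6 h in TAK1-deleted cells (0.0144, against 0.0724 without it) and 0.36 from 6 to 24 h in wild type cells (0.0232, against 0.074). The step of 0.43 was also called under quantile normalization (0.0435) and adjustment over all contrasts (0.0339).

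Bik, a BH3-only protein of the endoplasmic reticulum, was not called in any comparison, with 8 of 20 arrays at or above the filter level and values of 7.06 to 7.60 in TAK1-deleted cells and 7.15 to 7.64 in wild type cells. The effector gene Bak1, whose product permeabilises the outer mitochondrial membrane, ranged from 9.66 to 10.70 in TAK1-deleted cells and from 9.45 to 10.88 in wild type cells. Its changes from 0 h were -0.50, -0.56, -0.19 and 0.01 in TAK1-deleted cells and -0.65, -0.28, 0.03 and 0.34 in wild type cells at 1, 3, 6 and 24 h, none called, with a standard error of 0.25. Replicate 1 of Bak1 lay above replicate 2 in all 10 groups, by 0.20 to 0.66. With the replicate number as a block Bak1 was called lower in TAK1-deleted cells at 1 h (adjusted p = 0.00212) and 3 h (0.000368), and in wild type cells lower at 1 h (0.000146) and 3 h (0.0443) and higher at 24 h (0.0163). Without the block the adjusted p were 0.211, 0.0926, 0.0767, 0.405 and 0.308 in that order. A call also appeared at 1 h in wild type cells without its 1 h replicate 1 (0.03) and at 3 h in TAK1-deleted cells without its 3 h replicate 1 (0.0257). Under quantile normalization Bak1 was called lower at 1 h in wild type cells (0.0104) and TAK1-deleted cells (0.0364). At 3 h in TAK1-deleted cells it was too (0.00902). Median centring called it lower at 1 h in wild type cells (0.0248) and at 3 h in TAK1-deleted cells (0.03). Its steps of 0.37 from 3 to 6 h in TAK1-deleted cells, and 0.37 from 1 to 3 h and 0.31 from 6 to 24 h in wild type cells, were likewise called with the block (0.0281, 0.0118 and 0.0425) and not without it (0.512, 0.299 and 0.464).

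The block removes a difference between the replicates that ran through all groups, and with it more of all genes were called. Against 0 h the shares called were 36.3%, 56.3%, 52.1% and 44.6% in TAK1-deleted cells and 43.2%, 59.0%, 57.1% and 58.2% in wild type cells at 1, 3, 6 and 24 h. For the steps they were 47.9%, 20.8% and 35.7% in TAK1-deleted cells and 51.9%, 25.9% and 38.0% in wild type cells. Between genotypes they were 6.99%, 12.9%, 8.31%, 12.2% and 28.8% at 0, 1, 3, 6 and 24 h, and for the difference in change from 0 h 0.752%, 1.95%, 6.45% and 22.0%. Among the 10 genes, replicate 1 was the higher array in all 10 groups for Bcl2, Mcl1, Bcl2l11 and Bak1, and replicate 2 was for Bik.

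**Figure D3:**
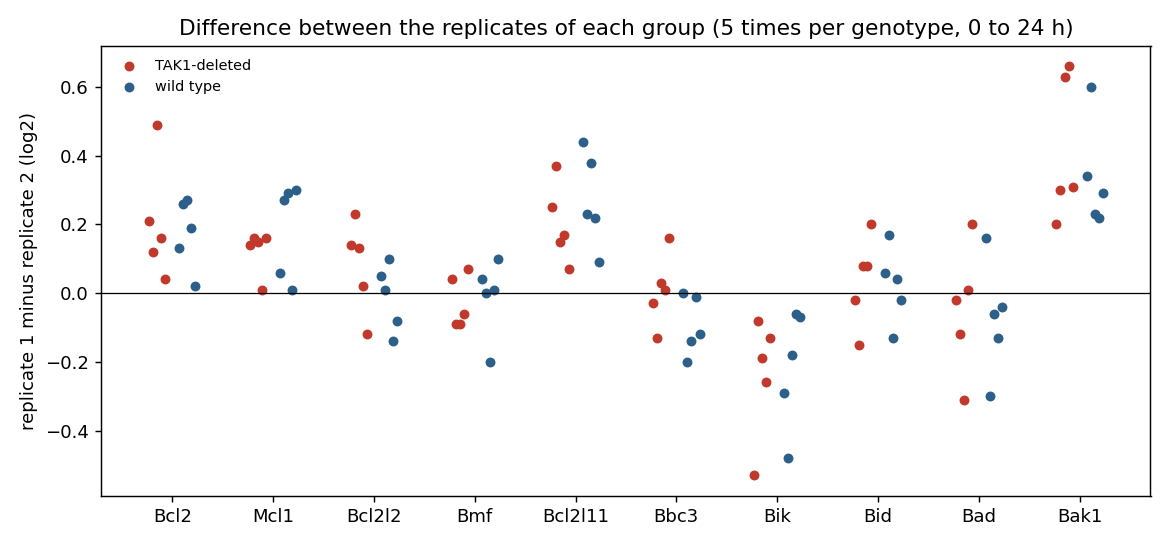
Difference between the replicates of a group (replicate 1 minus replicate 2, log2, vertical axis) for each gene, with 1 point per time, TAK1-deleted in red and wild type in blue. All 10 points lie above 0 for Bcl2, Mcl1, Bcl2l11 and Bak1 (0.20 to 0.66 for Bak1) and below 0 for Bik (-0.53 to -0.06).

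The second question was where the genotypes differed. At 0 h none of the 10 genes was called between TAK1-deleted and wild type cells, where 2.32% of all tested genes were, and 0 had an unadjusted p below 0.05 in limma. At 1 h 1 was called (4.28% of all genes), at 3 h 2 (2.71%), at 6 h 1 (2.53%) and at 24 h 1 (12.2%). The 5 calls belong to Bbc3, Bcl2 and Bmf. Mcl1, Bcl2l2, Bcl2l11, Bik, Bid, Bad and Bak1 had no called difference at any time. Their differences lay between -0.33 and 0.34.

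Bmf was higher in TAK1-deleted cells at 3 h by 0.55 ± 0.11 (1.46-fold, adjusted p = 0.0106), at 6 h by 0.86 ± 0.11 (1.82-fold, adjusted p = 0.00031) and at 24 h by 0.93 ± 0.11 (1.91-fold, adjusted p = 3.96e-05). Its means were 9.81 ± 0.06 in TAK1-deleted and 9.26 ± 0.14 in wild type cells at 3 h (SD, n = 2 each). The means at 6 h were 9.80 ± 0.04 in TAK1-deleted and 8.94 ± 0.01 in wild type cells, and those at 24 h were 10.45 ± 0.05 in TAK1-deleted and 9.52 ± 0.07 in wild type cells. The calls at 6 and 24 h were kept with any one array left out (adjusted p up to 0.00887 and 0.00149). The call at 3 h was lost without wild type 3 h replicate 1 (0.175) or TAK1-deleted 3 h replicate 2 (0.106), under quantile normalization (0.0545), and when 3 h arrays were fitted alone (0.31).

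Bcl2 was lower in TAK1-deleted cells at 3 h (log2 difference -0.69 ± 0.15, 1.62-fold, adjusted p = 0.0202), with means of 10.03 ± 0.34 in TAK1-deleted and 10.73 ± 0.19 in wild type cells (SD, n = 2 each). The call was lost without wild type 3 h replicate 1 (0.262) or TAK1-deleted 3 h replicate 2 (0.263), and when 3 h arrays were fitted alone (0.356). At 6 h the difference was -0.31 ± 0.15 (adjusted p = 0.436, and 0.036 with the block), and at 24 h it was 0.06 (95% interval -0.27 to 0.38). For Mcl1 the difference at 1 h was -0.26 (adjusted p = 0.421, 0.0439 with the block, and 0.033 under median centring).

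Bbc3 was lower in TAK1-deleted cells at 1 h (log2 difference -0.47 ± 0.11, 1.38-fold, adjusted p = 0.0248), with means of 7.67 ± 0.09 in TAK1-deleted and 8.13 ± 0.14 in wild type cells (SD, n = 2 each). The call was lost without TAK1-deleted 1 h replicate 1 (0.243), TAK1-deleted 1 h replicate 2 (0.0625) or wild type 1 h replicate 2 (0.217). It was also lost when arrays were centred on their medians (0.0923) and when 1 h arrays were fitted alone (0.524).

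**Figure D4:**
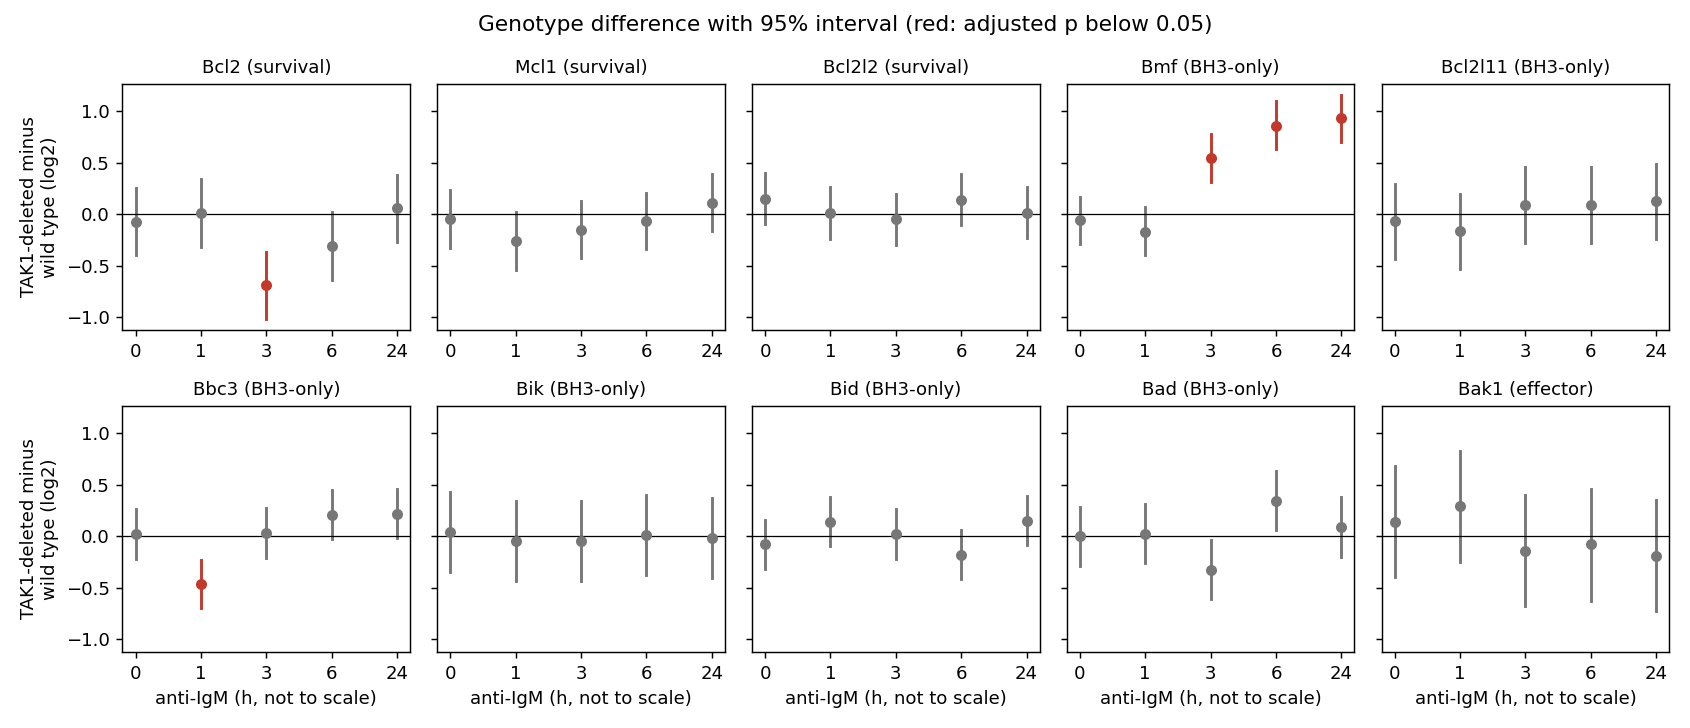
Difference between genotypes (TAK1-deleted minus wild type, log2, vertical axis) with its 95% interval at 0, 1, 3, 6 and 24 h of anti-IgM (horizontal axis, not to scale) for each gene, in red where the adjusted p was below 0.05. Bmf is positive at 3, 6 and 24 h (0.55, 0.86 and 0.93), Bcl2 is negative at 3 h (-0.69) and Bbc3 at 1 h (-0.47), and all other points are grey.

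Whether the change from 0 h itself differed was tested as an interaction, TAK1-deleted minus wild type. Of the 10 genes 0 were called at 1 and 3 h, where 0.109% and 0.0585% of all tested genes were, and 1 was called at 6 h (0.284% of all) and at 24 h (8.66%). At an unadjusted p below 0.05 limma gave 1 of the members at 1 h, Bbc3, and 2 at 3 h, Bcl2 and Bmf. Both calls were Bmf, whose difference in change was 0.93 ± 0.15 at 6 h (adjusted p = 0.014). By 24 h it was 0.99 ± 0.15 (adjusted p = 0.000695). The call at 24 h was kept with any one array left out. That at 6 h was lost without any one of 7 arrays, which were both wild type 0 h, both wild type 6 h and both TAK1-deleted 6 h arrays and TAK1-deleted 0 h replicate 1 (adjusted p of 0.0514 to 0.104), and when the 4 groups it compares were fitted alone (0.0845). With the replicate block the interaction at 3 h was also called for Bmf (0.61, adjusted p = 0.0168, against 0.226 without it) and Bcl2 (-0.62, adjusted p = 0.0166, against 0.601). Quantile normalization called that of Bcl2 too (0.041). Adjustment over all contrasts called that of Bmf at 3 h (0.0102) and that of Bbc3 at 1 h (0.0456).

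Markers of cells other than B cells also differed between the genotypes and are given beside the differences above. Of 12 monocyte or macrophage markers 0 were called between genotypes at 0, 3 and 6 h and 1 higher at 1 h, while 11 were higher in TAK1-deleted cells at 24 h. Their summed linear signal was 4280 to 5340 in TAK1-deleted and 4420 to 4750 in wild type cells at 3 h. The sums at 6 h were 3130 to 3600 in TAK1-deleted and 3330 to 3830 in wild type cells, and those at 24 h were 16500 to 18500 in TAK1-deleted and 5700 to 6240 in wild type cells. Bmf was higher in TAK1-deleted cells at 3, 6 and 24 h, and the part of these cells in that was not tested. All 9 neutrophil markers were also higher in TAK1-deleted cells at 24 h, with 2 higher and 1 lower at 0 h, 3 higher and 1 lower at 1 h, 2 higher at 3 h and 1 at 6 h. Their summed linear signal at 1 h, the time of the Bbc3 difference, was 6690 to 7560 in TAK1-deleted and 4480 to 5080 in wild type cells.

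Erythroid markers were higher in TAK1-deleted cells for 10, 9, 8, 7 and 1 of 10 genes at 0, 1, 3, 6 and 24 h. Their summed signal was 9060 to 11400 in TAK1-deleted and 4920 to 5340 in wild type cells at 3 h. NK cell markers were lower for 5, 6, 6 and 4 of 8 at 0, 1, 3 and 6 h, and T cell markers for 2, 5, 1 and 2 of 8, with 1 and 3 higher at 24 h. Plasma cell markers were lower for 3, 2, 1, 1 and 1 of 5 from 0 to 24 h, with 1 higher at 24 h. Dendritic cell markers were higher for 1, 1, 1, 1 and 3 of 7, and platelet or megakaryocyte markers for 3 of 4 at 24 h and 0 before. Of 4 tested sex-linked genes 3 were lower in TAK1-deleted cells at all 5 times and 1 was higher from 0 to 6 h. Their median log2 difference was -3.08, -2.83, -2.69, -2.74 and -2.5 at 0, 1, 3, 6 and 24 h. The labels give a mix of sexes for both genotypes and not its proportions. The part of any of these cells, or of sex, in the differences of Bmf, Bcl2 and Bbc3 was not tested. Markers also moved with time, beside the changes of Bcl2, Mcl1 and Bmf, and their part in those was not tested either. At 3 h against 0 h, 11 of 12 monocyte or macrophage, 6 of 7 dendritic cell and 5 of 9 neutrophil markers were lower in each genotype. Erythroid markers were lower for 8 of 10 in TAK1-deleted cells and 3 of 10 in wild type cells, and NK cell markers for 6 of 8 in TAK1-deleted cells and 8 of 8 in wild type cells. At 24 h against 6 h, beside the called steps of Bcl2 and Bmf, 12 of 12 monocyte or macrophage and 6 of 9 neutrophil markers were higher in TAK1-deleted cells. Wild type cells had 3 of the 12 monocyte or macrophage markers higher and 2 lower, and 0 of the 9 neutrophil markers higher and 5 lower. Pan B cell markers rose over that step for 5 of 9 in TAK1-deleted cells and 4 of 9 in wild type cells, and 1 fell in each.

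Other genes of the pathway were counted from lists by role. Of 9 tested effector, BH3 and BH3-like genes outside the 10, 2 were higher in TAK1-deleted cells at 24 h and 0 differed at the earlier times, where 12.2% of all tested genes were called at 24 h and 2.32% to 4.28% before. Counts of so few genes near such shares are no result about the list. The called genes were Bcl2l14, a family member with a less settled role, at 1.01 ± 0.13 (adjusted p = 8.88e-05), and Bnip3l, which was named after its values were seen. Against 0 h, 2, 1, 1 and 3 of the 9 were higher and 1, 2, 0 and 0 lower in TAK1-deleted cells at 1, 3, 6 and 24 h, and in wild type cells 2, 0, 0 and 2 were higher and 0, 3, 1 and 1 lower. Of all tested genes 9.10% to 19.6% were higher and 10.2% to 22.1% lower in TAK1-deleted cells. The wild type shares were 10.6% to 24.1% higher and 13.9% to 23.2% lower, so these counts too are no result about the list. Pmaip1, which encodes the BH3-only protein Noxa, rose at 1 h by 1.45 in TAK1-deleted cells and 1.47 in wild type cells, and the step from 1 to 3 h was -1.03 in TAK1-deleted and -1.08 in wild type cells, all called. At 24 h Pmaip1 was called higher than at 0 h in TAK1-deleted cells (0.78) and not in wild type cells, without a called difference between the genotypes. Bnip3, a mitochondrial BH3-like gene induced by low oxygen, was called higher at 6 h (0.60) and 24 h (0.51) in TAK1-deleted cells. It was called lower at 1 h in TAK1-deleted cells (-0.44) and at 3 h in wild type cells (-0.56). Bcl2l13, a BCL2-like gene of the mitochondrial membrane, rose at 1 h by 0.69 in TAK1-deleted and 0.74 in wild type cells.

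Downstream of mitochondria, 2 of 16 apoptosome and caspase genes were called higher and 7 lower at 3 h in TAK1-deleted cells, against 3 higher and 6 lower in wild type cells. Of all tested genes 19.6% were higher and 22.1% lower in TAK1-deleted cells at 3 h, and 20.9% and 23.2% in wild type cells. Casp9, the apoptosome's initiator caspase, was lower at all 4 times in both genotypes, with -0.94 in TAK1-deleted and -0.96 in wild type cells at 3 h. Casp8, the death receptor caspase, was lower at 3 h (-1.28 in TAK1-deleted and -0.92 in wild type cells). Birc5, which encodes the mitotic and caspase-restraining protein survivin, was lower in TAK1-deleted cells at 24 h (-0.88 ± 0.12, adjusted p = 0.000124). Between genotypes 1 gene of this list was higher at 1 h, again Birc5 (0.64), and 1 was lower at 24 h, and 0 differed at 0, 3 and 6 h. Of all tested genes 4.28% were called at 1 h, 12.2% at 24 h and 2.32% to 2.71% at the other times.

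Of 17 upstream regulators of these genes, 0 differed between genotypes from 0 to 6 h and 2 were lower in TAK1-deleted cells at 24 h, Myc (-0.75) and E2f1 (-0.78), where 12.2% of all tested genes were called at 24 h. Against 0 h, 3, 2, 3 and 3 were higher and 0, 4, 1 and 2 lower in TAK1-deleted cells, and in wild type cells 2, 3, 4 and 4 were higher and 0, 5, 2 and 3 lower. Foxo1, which encodes a transcription factor that drives Bcl2l11 in other settings, was called higher at 1 h in TAK1-deleted cells (12.12 against 11.57 at 0 h, 0.56, adjusted p = 0.0272) and lower from 3 h on, with a mean of 10.74 at 24 h (-0.83). Its wild type mean was 10.31 at 24 h, against 11.50 at 0 h (-1.19), and it was called lower from 3 h on. Ddit3, the stress factor Chop, rose at 1 h by 2.29 in TAK1-deleted and 2.00 in wild type cells. Of 7 NF-κB feedback genes 2 were lower in TAK1-deleted cells at 1 h and 1 at 3 and at 6 h, with Tnfaip3, which encodes A20, at -1.22, -1.47 and -1.21. The other gene at 1 h was Nfkbia, named after its values were seen. At 24 h Tnfaip3 was lower (-0.50) and Bcl3, an atypical IκB protein, higher (1.07) in TAK1-deleted cells. Against 0 h, 5, 5, 5 and 3 of the 7 were higher in each genotype, and 1 was lower in wild type cells at 24 h. Of all tested genes 9.10% to 19.6% were higher and 10.2% to 22.1% lower than at 0 h in TAK1-deleted cells. In wild type cells 10.6% to 24.1% were higher and 13.9% to 23.2% lower. Between genotypes 2.32% to 4.28% were called from 0 to 6 h. The counts of the 17 regulators lie near such shares and are no result about that list. Those of the 7 NF-κB feedback genes against 0 h lie above them at 1, 3 and 6 h in each genotype. Their median change at 1 h was 0.87 in TAK1-deleted and 1.15 in wild type cells, against -0.03 and -0.05 over all tested genes. As this list is short and was chosen with earlier results of these data known, these values are descriptions without a test.

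The genes with the most similar time courses were found by Pearson correlation over the 10 group means, searched among 11967 genes. This is a description without a test, and the means share arrays. The closest to Bcl2 were Mbnl1 (r = 0.982) and Gsk3b (0.98), to Mcl1 Tlr6 (0.992) and Sulf2 (0.989), and to Bcl2l11 Litaf (0.98) and Nr4a3 (0.978). Bmf had less similar companions, Hdac5 (0.897) and Cby3 (0.886). For the dim or flatter genes they were Fancg and Nabp2 for Bcl2l2 (0.973 each), Nkx2-5 and Btbd6 for Bbc3 (0.926 and 0.925), Wnt10b and Pdcd1 for Bik (0.959 and 0.952) and Dock6 and Prxl2b for Bad (0.94 and 0.916). Bid was closest to Ints5 and Snapc2 (0.992 and 0.99) and Bak1 to Senp1 and Prelid1 (0.975 and 0.972). Among the 10 genes, Bcl2 and Mcl1 moved together (0.81), and Mcl1 and Bcl2l11 moved in opposite directions (-0.83). The group means of Bcl2l2 and Bak1 also correlated (0.83), but Bcl2l2 was dim and Bak1 had no call in the main fit.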

How the data were processed

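RNA of 20 samples was hybridised to Affymetrix mouse arrays, 1 per sample. Per the submitters' processing notes, the authors computed log2 signals by RMA in Affymetrix Expression Console 1.0, and these deposited log2 values of 35556 probe sets (3.64 to 14.68) were used without rescaling. The build behind the probe annotation is not given in the sources used here, and raw scans were not used here. RMA shares its normalization across arrays and compresses changes of dim genes.

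Probe sets with 1 gene symbol in the platform annotation were kept where at least 2 arrays reached 7.45, the median of all values, and the probe set with the highest mean stood for a gene. This left 11968 genes. Of 35556 probe sets 21789 had 1 symbol, 1621 several, and 12146 were not listed. A linear model of 10 group means was fitted to all 20 arrays with limma 3.58.1 under R 4.3.3, its variances moderated by eBayes along the trend with intensity, with Benjamini-Hochberg adjustment over all genes within each of 23 contrasts, two-sided, and calls below 0.05. Values after ± are standard errors unless marked SD, and intervals are 95% intervals. The number of arrays limits the precision, with a median standard error of 0.161 between groups. The fit was tested on simulated data with known changes. The simulated noise was independent between arrays, so that test does not cover deviations shared by same-numbered arrays.

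Samples were grouped by genotype and time as labelled. The labels give replicate numbers and not what they mark. Deviations of same-numbered arrays from their group means correlated in all 45 pairs of groups (r of 0.19 to 0.77), so the numbers pair the samples, and this rests on the data. A fit with the replicate number as a block is given beside a result where it changes the call. No array pair held identical values. Members and gene lists were chosen with earlier results of these data known. All 10 members are named in full, besides them up to 4 genes per list with the largest called change, the 2 genes most like each member, and genes marked as chosen after their values were seen. Alternatives were no filter, a stricter filter, the mean of a gene's probe sets, quantile normalization, median centring, no trend, the block, adjustment over all contrasts, the compared groups alone and each array left out.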

Additional observations from a re-analysis of the deposited data

Results flagged for a closer look

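Bmf was marked because its change from 0 h differed between the genotypes in a test of that difference. The change in TAK1-deleted cells minus that in wild type cells was 0.93 at 6 h (adjusted p = 0.014 in limma) and 0.99 at 24 h (adjusted p = 0.000695). All TAK1-deleted arrays lay above all wild type arrays at these times. The value at 6 h lost its call without any one of 7 arrays, both wild type 0 h (adjusted p = 0.0751 and 0.0514), both wild type 6 h (0.104 and 0.0917), both TAK1-deleted 6 h (0.0713 and 0.0987) and TAK1-deleted 0 h replicate 1 (0.0694).

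Bcl2l1, the Bcl-xL gene, was marked by the same test in the opposite direction. Its change from 0 h in TAK1-deleted cells minus that in wild type cells was -1.17 at 1 h, -1.72 at 3 h, -1.14 at 6 h and -0.82 at 24 h (adjusted p = 0.0152, 0.00108, 0.0121 and 0.00937 in limma). With an array left out the call at 3 h was kept throughout. The call at 1 h was lost without wild type 0 h replicate 1, wild type 1 h replicate 2, TAK1-deleted 0 h replicate 2 or either TAK1-deleted 1 h array (adjusted p of 0.0504 to 0.118). The call at 6 h was lost without replicate 1 of wild type or TAK1-deleted 0 h or either array of wild type or TAK1-deleted 6 h (0.0514 to 0.0917). The call at 24 h was lost without wild type 0 h replicate 1 (0.0505) or TAK1-deleted 24 h replicate 1 (0.0506).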

How the results depend on the processing

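Of 230 values of the 10 genes, 63 were called, and none was reversed under any alternative run. With each array left out in turn, 48 of the 63 calls were kept throughout, 15 were lost at least once and 6 others were gained at least once. Calls between genotypes numbered 5, with 3 to 5 when an array was left out and 2 when the compared groups were fitted alone. Differences in the change from 0 h numbered 2, with 1 to 2 when an array was left out, 1 with the compared groups alone, and 4 with adjustment over all contrasts. With the replicate block they also numbered 4, the steps in wild type cells 13 (5 without it) and those in TAK1-deleted cells 12 (6 without it). Quantile normalization and median centring each gave 9 wild type steps. Death genes were called lower than at 0 h in 9 values, in 5 with the compared groups alone and in 4 under the stricter filter, which removes Bcl2l2, Bbc3, Bik and Bad. Map3k7, with 0 called genotype differences, had 2 under quantile normalization, 1 under median centring and 1 with the replicate block. The replicate block added 28 calls, each given beside its value, and changed no other call of the 10 genes. Single values lost a call 19 times with the compared groups alone, 7 with median centring, 2 with quantile normalization, 1 without the filter and 1 with adjustment over all contrasts, and gained one 2, 10, 16, 0 and 4 times under these settings in the same order. Averaging probe sets or dropping the trend changed none. The cause of these changes was not tested, except that the stricter filter tests fewer genes and the compared groups alone leave fewer arrays. Bcl2l2 and Bik were at the filter level, and their low signal over background limits what could be detected.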
